A study of Mus musculus with 15 samples.

Results

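The immediate early transcription factors examined here were 10 genes, Fos, Fosb, Jun, Junb, Jund, Egr1, Egr2, Egr3, Atf3 and Myc, of 21045 protein-coding genes with an annotated 3′UTR. They were chosen by name, as factors that cells make within the first hour of a stimulus. No crosslink value entered that rule, although earlier results of these data were known when it was set. Every crosslink site of the tristetraprolin (TTP) iCLIP lists that lay on the sense strand of these genes was taken, 394 of 162273 listed sites (mouse genome mm10, GENCODE M21 gene models). Of these sites, 388 (98.5%), with 754 cDNAs, lay in a 3′UTR, 4 sites with 5 cDNAs in coding sequence and 2 sites with 5 cDNAs in an intron.

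iCLIP joins a protein to the RNA it touches by UV light and reads the crosslinked nucleotide from the place where the cDNA stops, so that each unique cDNA counts 1 crosslink event. All 15 libraries came from C57BL/6 bone marrow-derived macrophages that lack TTP, were immortalised with the human oncogenes hcmyc and hRasG12V, and carried a retroviral, doxycycline-inducible GFP fusion of TTP or of TTP-AA. TTP-AA carries alanine at both serines that the kinase MK2 targets after LPS (S52A, S178A). All cells received doxycycline for 6 h. They were given lipopolysaccharide (LPS) for 0 h (TTP and TTP-AA, 2 libraries each), 1 h (TTP, 4 libraries; TTP-AA, 3 libraries) or 4 h (2 libraries each), and complexes were pulled down through GFP. The submitters summed the libraries of a group before calling sites, so there was 1 list per group and no value per library. The spread between libraries could therefore not be measured, and each test below compares pooled lists and not conditions. A list free of TTP (GFP alone) was not analysed here.

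The lists held between 8052 sites (TTP 4 h) and 86497 sites (TTP-AA 1 h), and 3′UTR cDNAs numbered 4369 in TTP 0 h, 6008 in TTP-AA 0 h, 9558 in TTP 1 h, 93510 in TTP-AA 1 h, 906 in TTP 4 h and 1000 in TTP-AA 4 h. The 3′UTR took 9.63% of all cDNAs in TTP 1 h and 53.6% in TTP-AA 1 h. Markers of cell type were counted by sense-strand cDNAs in any region of the gene. Of 10 macrophage markers 8 had such a cDNA in at least 1 list (summed cDNAs 0 to 425 per list, Fcgr1 and Mertk at 0). The 17 markers of T cells, B cells, neutrophils, fibroblasts and epithelium were listed at 0 throughout. The lists hold only sites past the submitters' false-discovery rate, so a value of 0 says that no site was listed.

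Fos, Fosb, Jun, Junb and Jund are the basic leucine zipper proteins that pair into the AP-1 factor, Egr1, Egr2 and Egr3 are zinc finger factors, Atf3 is a related leucine zipper protein known as a brake on inflammatory genes, and Myc is a growth factor-induced helix-loop-helix protein. Their mRNAs are short-lived, and those of Fos and Myc were among the first in which AU-rich elements of the 3′UTR were found to drive decay. TTP binds such elements, whose core is AUUUA, through its zinc fingers and recruits the deadenylation machinery, and MK2 holds this activity back after LPS. The comparisons ask which of these mRNAs TTP touched, where, and whether the protein's MK2 sites or the time of LPS changed this.

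The sequences at which crosslinking concentrated differed between the members, and the following 30-base stretches of 3′UTR show it. Each is centred on the site with most cDNAs of that gene in a 1 h list (the crosslinked base is the 16th, and ties were resolved to the site nearest the stop codon), read from GENCODE M21 transcripts with U for T. AUUUA is in capitals.
Fos, TTP 1 h, chr12:85477094-85477123 (+): uuuuuauuguguuuucaAUUUAUUUAuuaa
Fos, TTP-AA 1 h, chr12:85477140-85477169 (+): uuuauauuuuuauuuuauuuuuuucuaccc
Jun, TTP 1 h, chr4:95049749-95049778 (-): uguguauguacauauauauuuuuuuuuaau
Jun, TTP-AA 1 h, chr4:95049741-95049770 (-): uacauauauauuuuuuuuuaauuugaugaa
Junb, both lists, chr8:84977129-84977158 (-): auaauauauuuguguAUUUAacagggaggg
Jund, both lists, chr8:70700356-70700385 (+): guccgauuccgcccuAUUUAuguuucuacu
Atf3, TTP-AA 1 h, chr1:191170340-191170369 (-): gagaaaauauuacuuAUUUAucccaguauu
In Junb, Jund and Atf3 the crosslinked base was the first A of AUUUA. In Fos the site of the TTP list lay beside the overlapping pair AUUUAUUUA, and that of the TTP-AA list, at nucleotide 697, in a uridine-rich stretch that starts with the last bases of the AUUUA at nucleotide 681, whose first A lies just outside the window. The Jun stretches held a run of uridines and no AUUUA.

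The members split into 3 groups by their 3′UTR crosslinks. Fos, Jun, Junb and Jund had sites with both proteins at 1 h, Egr1, Atf3 and Fosb had sites with TTP-AA at 1 h and in no other list, and Egr2, Egr3 and Myc had no 3′UTR site in any list. Over all genes, 1295 had a 3′UTR site in TTP 1 h and 4468 in TTP-AA 1 h. Among genes with at least 10 cDNAs over both 1 h lists, 1140 of 2065 were at 0 with TTP, and 2 of 6 members. A site with TTP-AA alone is thus common and not particular to the members. All 10 carry AUUUA in the 3′UTR, as do 65.2% of the 21045 3′UTRs. Egr3, with 7 copies the richest of the 10, and Myc, whose 3′UTR at 69.7% A and U is the most AU-rich, were among those without a site. RNA levels were not measured in these files, so that fewer crosslinks and less mRNA cannot be told apart.

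**Figure D1:**
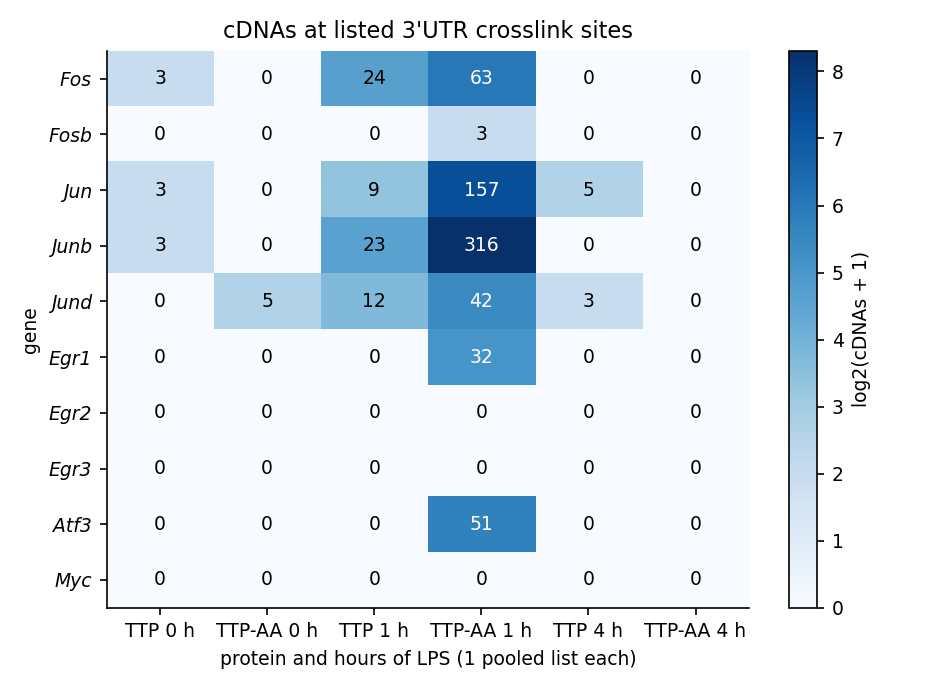
cDNAs at listed 3′UTR sites of each of the 10 genes (rows) in each of the 6 pooled lists (columns), with the shade giving log2(cDNAs + 1). TTP-AA 1 h holds the highest value of each of the 7 genes with a 3′UTR site, from 3 in Fosb to 316 in Junb, and Egr2, Egr3 and Myc are at 0 throughout.

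Junb, an AP-1 subunit with weaker transactivation than Jun, had most cDNAs. Its 485-nt 3′UTR held 3 cDNAs in TTP 0 h, 0 in TTP-AA 0 h, 23 in TTP 1 h, 316 in TTP-AA 1 h and 0 in both 4 h lists. It ranked 25th by 3′UTR cDNAs of 4468 genes with a 3′UTR site in TTP-AA 1 h and 49th of 1295 in TTP 1 h, and per kb of 3′UTR it ranked 20th and 35th. Its 125 TTP-AA sites formed 2 clusters (sites up to 15 nt apart), at nucleotides 188 to 278 after the stop codon with 127 cDNAs and at nucleotides 307 to 460 with 189 cDNAs. TTP divided its cDNAs 12 and 11 between the same clusters. The highest site of both lists was the same nucleotide, 252, the first A of one of the AUUUA copies, with 6 TTP and 11 TTP-AA cDNAs. The highest site of the second cluster in TTP-AA, nucleotide 336 with 10 cDNAs, was a G in a stretch with neither AUUUA nor a uridine run (chr8:84977045-84977074, minus strand), shown because it departs from the other leading sites.
Junb, second cluster: gggauacuagggagggaccuccgcccccug
Further along that cluster, nucleotides 407 to 448 held 12 sites with at least 5 TTP-AA cDNAs each, shortly before the other AUUUA at nucleotide 455.

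Jun, the chief transactivating AP-1 subunit, was second among the members in TTP-AA 1 h. It ranked 59th of all 4468 genes with a 3′UTR site there, and 111th per kb of 3′UTR. Its 1233-nt 3′UTR held 3 cDNAs in TTP 0 h, 0 in TTP-AA 0 h, 9 in TTP 1 h, 157 in TTP-AA 1 h, 5 in TTP 4 h and 0 in TTP-AA 4 h. All of them lay between nucleotides 501 and 681, upstream of the first of 4 AUUUA copies, which begin at nucleotides 701, 1034, 1053 and 1172. The first cluster (501 to 622) held all 9 TTP and 129 TTP-AA cDNAs, and the second (648 to 681) held 28 TTP-AA cDNAs. The highest TTP-AA site was nucleotide 512 with 10 cDNAs, and each of the 9 TTP sites had 1 cDNA. The second cluster also lay in uridine-rich sequence, shown here around nucleotide 673 (chr4:95049580-95049609, minus strand), a window chosen, like that of the second Junb cluster, after its values were seen.
Jun, second cluster: auaauuuuuuuauguuuuguuucugaaaau

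Fos, the AP-1 partner that cannot bind DNA without a Jun protein, had 3 cDNAs in TTP 0 h, 0 in TTP-AA 0 h, 24 in TTP 1 h, 63 in TTP-AA 1 h and 0 at 4 h. It was the leading member of the TTP 1 h list, at rank 47, and stood at rank 239 in TTP-AA 1 h. Its sites formed 1 cluster at nucleotides 613 to 739 of the 815-nt 3′UTR, around 3 of the 4 AUUUA copies, and the 3′UTR contains 1 copy of the nonamer UUAUUUAUU, which 7.65% of 3′UTRs hold. The leading sites carried 2 cDNAs in TTP and 5 in TTP-AA. The cDNAs were thus spread over 21 TTP and 37 TTP-AA sites with no dominant nucleotide.

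Jund, the member of the Jun group present in resting cells, had 5 cDNAs in TTP-AA 0 h, 12 in TTP 1 h, 42 in TTP-AA 1 h, 3 in TTP 4 h and 0 in the other lists. Its 533-nt 3′UTR has 1 AUUUA, at nucleotide 288, and the first A of that motif was the leading site of both 1 h lists, with 3 TTP and 11 TTP-AA cDNAs. The cluster around it (273 to 299) held 7 of 12 TTP and 29 of 42 TTP-AA cDNAs, and the next (342 to 374) held 5 and 12.

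**Figure D2:**
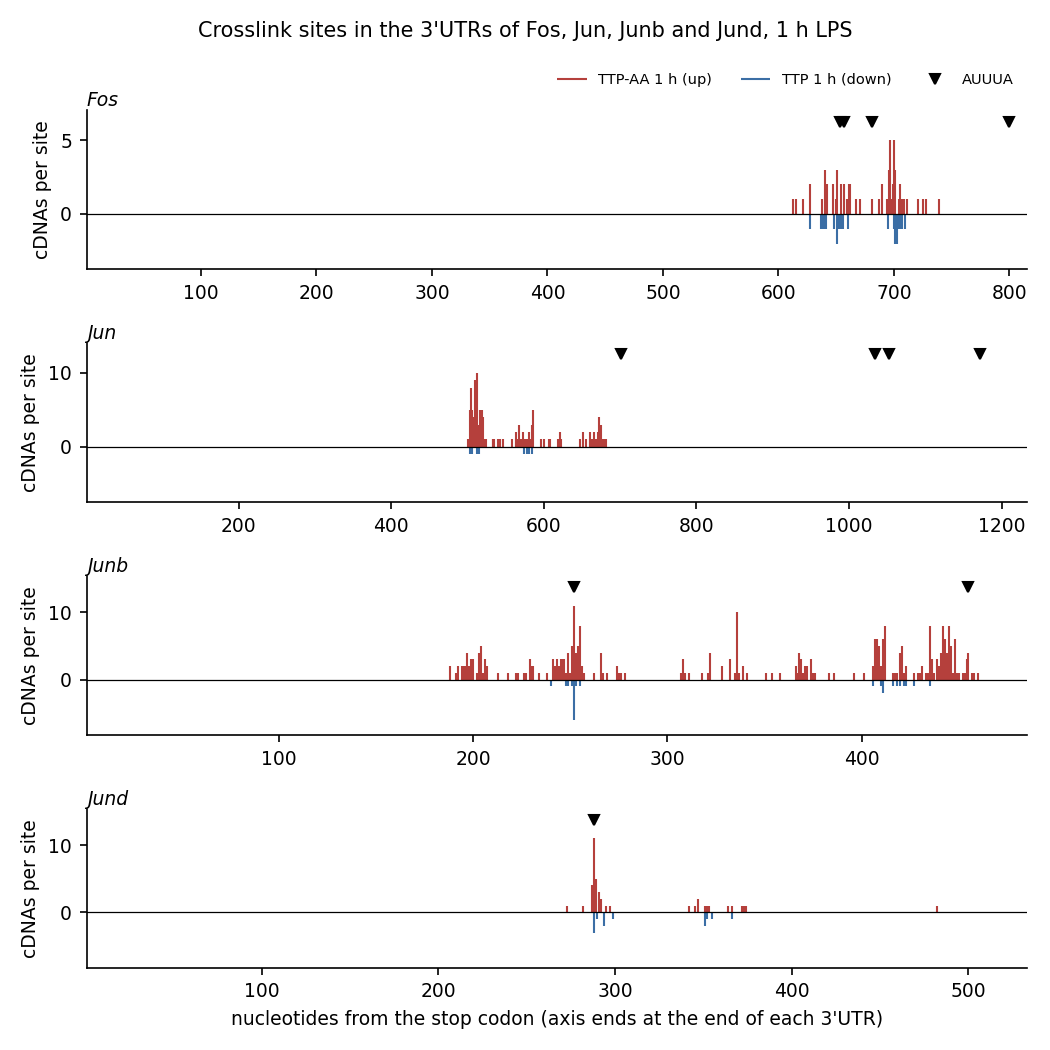
cDNAs per crosslink site (vertical axis) against the distance from the stop codon in nucleotides for Fos, Jun, Junb and Jund at 1 h LPS, with TTP-AA drawn upward, TTP downward and AUUUA starts as triangles. The leading bars of Junb (11 and 6 cDNAs) and Jund (11 and 3) stand at an AUUUA, those of Fos lie before the first copy (nucleotide 651) and after the third (nucleotides 697 to 703), and those of Jun lie before the first copy.

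Atf3 had 51 cDNAs at 28 sites and Egr1 32 cDNAs at 27 sites in TTP-AA 1 h, and both were listed at 0 in the other 5 lists. In Atf3 40 of the cDNAs lay at nucleotides 1089 to 1142 of the 1186-nt 3′UTR, around the last of its 3 AUUUA copies, and nucleotide 1128, the first A of that copy, had 10. Nothing was listed around the other copies at nucleotides 224 and 515. In Egr1, on chromosome 18, 28 cDNAs lay at nucleotides 1042 to 1134 and 4 at nucleotides 479 to 495 of a 1216-nt 3′UTR whose AUUUA copies begin at nucleotides 931 and 986, so its sites lay away from the motif. Its highest site had 4 cDNAs. Fosb had 3 sites of 1 cDNA each at nucleotides 1661 to 1665, around its sole AUUUA at nucleotide 1662 of a 2302-nt 3′UTR.

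**Figure D3:**
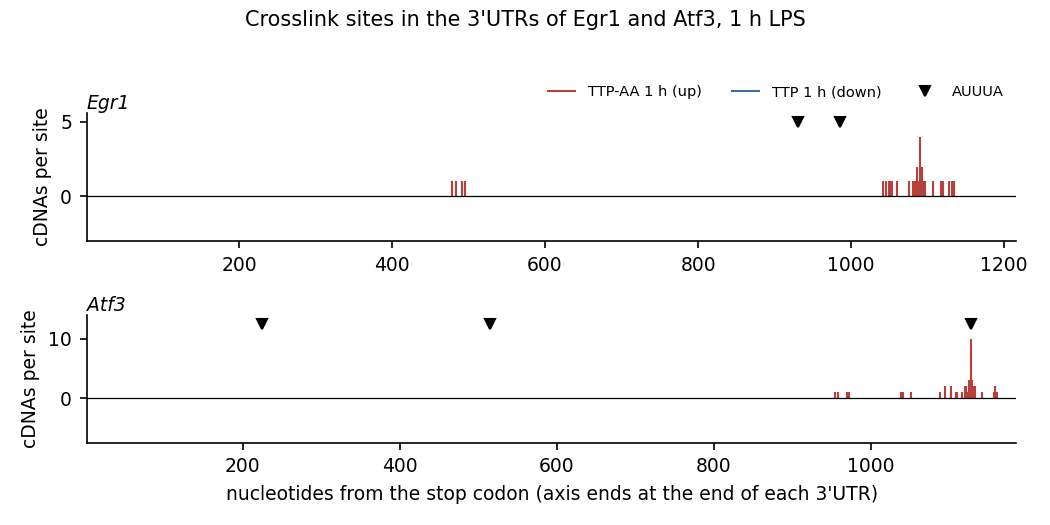
cDNAs per crosslink site against the distance from the stop codon in nucleotides for Egr1 and Atf3 at 1 h LPS, drawn as for the AP-1 genes. The Atf3 peak of 10 cDNAs stands at the last of 3 AUUUA copies, the Egr1 sites stand downstream and upstream of its 2 copies, and no TTP site is drawn because none was listed.

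Outside 3′UTRs the members had few sites. Myc had 2 cDNAs at chr15:61989711 in TTP 1 h and 1 cDNA at each of 3 coding positions (chr15:61989831, 61989843 and 61989846) in TTP-AA 1 h, all on the plus strand and upstream of the stop codon. The cells also express the introduced human gene, and whether these cDNAs came from it was not tested. Egr2 had 5 cDNAs in TTP 1 h at a pair of intronic positions 3 nt apart (chr10:67537598 with 3 and chr10:67537601 with 2 cDNAs). Egr3 had no site at all.

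At 1 h the members together took 68 of 9558 3′UTR cDNAs with TTP (0.711%, 95% Wilson interval 0.562 to 0.901) and 664 of 93510 with TTP-AA (0.710%, 0.658 to 0.766), intervals that cover counting error only. These shares of 3′UTR cDNAs lay within each other's counting error. Of all cDNAs in any region the members' sites, in all regions of the genes, took 0.0756% with TTP and 0.382% with TTP-AA. The makeup by gene differed in value. Fos gave 35.3% of the members' TTP cDNAs and 9.49% of their TTP-AA cDNAs, Junb gave 33.8% and 47.6%, Jun 13.2% and 23.6%, and Jund 17.6% and 6.33%. The members' sites were also deeper in TTP-AA, with 2.11 cDNAs per site against 1.24 in TTP, where all 3′UTR sites had 1.53 and 1.41.

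Fos was the member whose share of 3′UTR cDNAs differed between the proteins. It took 0.251% (0.169 to 0.373) with TTP and 0.0674% (0.0527 to 0.0862) with TTP-AA, an odds ratio of 0.268 (95% interval 0.165 to 0.448, adjusted p = 6.15e-05, two-sided Fisher's exact test with Benjamini-Hochberg adjustment over 2065 genes). This was the single call among 6 members tested, whereas 6.39% of all genes tested were called in either direction and 4.41% with the higher share in TTP. Jund leaned the same way without passing the threshold (0.126% and 0.0449%, odds ratio 0.357, interval 0.185 to 0.746, adjusted p = 0.0528 by the same exact test), and passed it when the 6 genes with most cDNAs were left out of the denominator (adjusted p = 0.0239, exact test). Junb (0.241% and 0.338%, odds ratio 1.41, interval 0.920 to 2.25, adjusted p = 0.446, exact test) and Jun (0.0942% and 0.168%, odds ratio 1.78, interval 0.916 to 3.98, adjusted p = 0.391, exact test) had the higher share in TTP-AA without passing it. For Atf3 the 0 TTP against 51 TTP-AA cDNAs gave an adjusted p of 0.133 and for Egr1 the 0 against 32 gave 0.318 (exact tests), so at this depth of the TTP list neither could be told from an equal share.

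**Figure D4:**
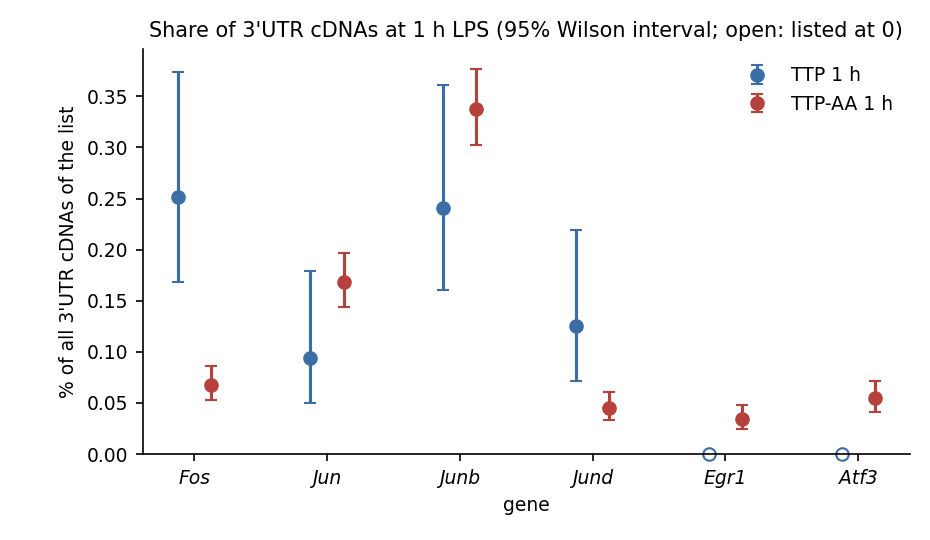
Share of each list's 3′UTR cDNAs (percent, vertical axis) taken by each of the 6 members tested at 1 h LPS, with 95% Wilson intervals and open points for genes listed at 0. The intervals of Fos (0.251% with TTP, 0.0674% with TTP-AA) do not overlap, nor do those of Jund (0.126% and 0.0449%), which did not pass the adjusted test, and those of Jun and Junb overlap.

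These shares depend on what they are set against. Measured as a share of all cDNAs in any region, Fos took 0.0242% with TTP and 0.0361% with TTP-AA (adjusted p = 0.109, exact test), so its direction turned. Jund turned too (0.0121% and 0.0241%, adjusted p = 0.0398, exact test), and Junb (0.0232% and 0.181%) and Jun (0.00907% and 0.0900%) had higher values in TTP-AA as before. On that scale 5 of 6 members were called, all toward TTP-AA, against 85.4% of all genes tested, so that count is not a result about the members. As counts, Fos cDNAs were 2.63 times, Jund 3.50 times, Junb 13.7 times and Jun 17.4 times as many with TTP-AA as with TTP, where all 3′UTR cDNAs were 9.78 times as many. With sites of at least 2 cDNAs alone, the Fos call was lost (adjusted p = 0.689, exact test), and Jun and Junb were called with the higher share in TTP-AA (2 of 5 members that could then be tested, 8.06% of all genes tested). With each site counted once, Jun and Junb had the lower share in TTP-AA.

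The TTP sites in the members lay close to TTP-AA sites, while many TTP-AA sites had no TTP site nearby. All 55 TTP sites in members' 3′UTRs at 1 h lay within 15 nt of a TTP-AA site (100%, 93.5 to 100), and 36 (65.5%) were the same nucleotide, whereas 76.6% and 46.0% of all TTP 3′UTR sites did so. The TTP-AA list was dense in these 3′UTRs, from 39.4 sites per kb in Jund to 258 in Junb, and the part of this density in the share was not tested. A TTP site lay that close to 162 of 315 TTP-AA sites (51.4%, against 21.5% of all TTP-AA 3′UTR sites), 35 of 37 in Fos, 20 of 21 in Jund, 42 of 74 in Jun and 65 of 125 in Junb.

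Of cDNAs in the 3′UTR or in coding sequence, all genes together had 86.5% in the 3′UTR with TTP and 96.5% with TTP-AA, and 3.65% of 1042 genes differed within the gene. Fos, Jun, Junb and Jund had 0 coding cDNAs in both lists, so the test could give no difference for them. The share of 3′UTR cDNAs near AUUUA within a gene was called in 0 of 4 members (1.57% of 890 genes). It was 66.7% and 76.2% in Fos, 52.2% and 41.1% in Junb, 58.3% and 69.0% in Jund and 0% and 0% in Jun with TTP and TTP-AA. The Jun test could give no difference. Each of the other members had an adjusted p of 1 and an unadjusted p of at least 0.382 (exact tests).

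Nearness to AUUUA set the members apart from one another. A site was counted as near when the whole motif, searched on the sense strand of the transcript with overlapping copies allowed, lay within 20 nt. In TTP-AA 1 h, 24 of 37 Fos sites, 12 of 28 Atf3 sites, 9 of 21 Jund sites and 41 of 125 Junb sites were near, but 0 of 74 Jun sites and 0 of 27 Egr1 sites. In these 3′UTRs 11.9% (Fos), 9.36% (Atf3), 6.94% (Jund), 15.3% (Junb), 10.5% (Jun) and 6.09% (Egr1) of all nucleotides are that near to the motif, and 6.54% over all 3′UTRs. Members together had 28.3% (23.6 to 33.5) of sites near AUUUA in TTP-AA 1 h and 45.5% (33.0 to 58.5) in TTP 1 h. All 3′UTR sites had 34.7% and 37.9%. The pooled member values also depend on which genes supplied the sites. Jun and Egr1, with 0 near, gave 74 and 27 of 315 TTP-AA sites and 9 and 0 of 55 TTP sites. Shares in TTP-AA and TTP were 64.9% and 66.7% in Fos, 32.8% and 41.2% in Junb and 42.9% and 50% in Jund. By cDNAs, Fos and Jund had the higher share in TTP-AA and Junb in TTP. The intervals count neighbouring sites of a 3′UTR as independent. Widening the distance to 50 nt brought in 17 of the 74 Jun sites, all before its first AUUUA, and still none in Egr1 or among the 9 Jun sites of TTP.

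A run of 5 uridines (UUUUU), a motif chosen after the Jun sites had been seen, gave another order. It lay within 20 nt of 42 of 74 Jun sites (56.8%) and 25 of 37 Fos sites (67.6%), of 48 of 125 Junb sites, 9 of 21 Jund sites and 6 of 27 Egr1 sites, and of 0 of 28 Atf3 sites in TTP-AA 1 h. All members had 41.3% and all 3′UTR sites 34.5%, and 9.78% of all 3′UTR nucleotides are that near to UUUUU. By gene, this share of nucleotides was 12.1% (Jun), 10.7% (Fos), 16.3% (Junb), 22.0% (Jund), 13.6% (Egr1) and 3.12% (Atf3). The crosslinked base itself was U at 58.1% of the members' TTP-AA sites and 63.6% of their TTP sites (61.6% and 63.8% of all 3′UTR sites), and G at 14.9% of their TTP-AA sites against 7.50% of all. Junb supplied 28 of these 47 G sites (22.4% of its own sites), and the other members had 19 of 190 (10%). The Junb 3′UTR is 46.6% A and U, where the median of all 3′UTRs is 56.6%. The part of base composition in the G share was not tested.

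**Figure D5:**
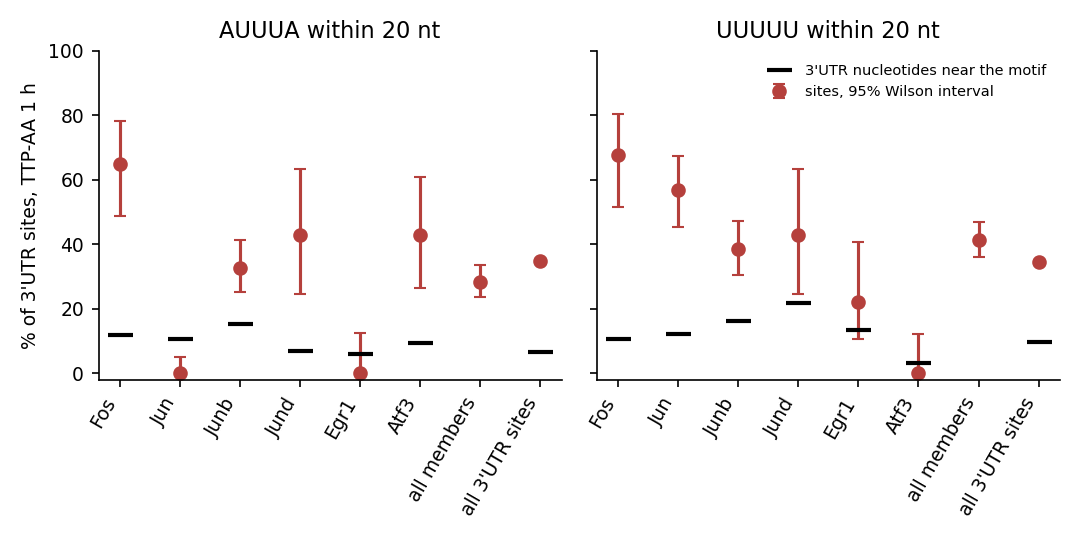
Percentage of 3′UTR sites in TTP-AA 1 h with AUUUA (left) or UUUUU (right) wholly within 20 nt, with 95% Wilson intervals, for 6 members, all members and all 3′UTR sites, and bars for the percentage of 3′UTR nucleotides that near to the motif. Jun is at 0% for AUUUA and 56.8% for UUUUU, and Atf3 at 42.9% and 0%.

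The members' sites at 0 h and 4 h were few. All 18 (9 in TTP 0 h, 3 in TTP-AA 0 h and 6 in TTP 4 h) were within 15 nt of a TTP-AA 1 h site, as were 82.2% of all 3′UTR sites of these 3 lists, and the part of the density of the TTP-AA 1 h list was not tested. The 3 Jun cDNAs of TTP 0 h lay at nucleotides 504 to 519 and the 5 of TTP 4 h at 504 to 514, in the first Jun cluster. The Jund cDNAs of TTP-AA 0 h and TTP 4 h both lay at nucleotides 287 to 291, at its AUUUA, which begins at nucleotide 288. Nucleotide 287, just before the motif, held 3 of the 5 cDNAs of TTP-AA 0 h and 1 of the 3 of TTP 4 h.

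With time of LPS, the shares of Junb and Jun among 3′UTR cDNAs rose in TTP-AA. Junb went from 0 of 6008 cDNAs at 0 h to 316 of 93510 at 1 h (0.338%, adjusted p = 2.37e-07, Fisher's exact test) and Jun from 0 to 157 (0.168%, adjusted p = 0.00244, exact test). These were 2 of 6 members tested, where 12.4% of 2052 genes were called and 2.73% with the higher share at 1 h. The Jun call was lost when each site was counted once. Fos (0 and 63 cDNAs, adjusted p = 0.167), Atf3 (0 and 51, 0.297), Egr1 (0 and 32, 0.624) and Jund (5 and 42, 0.543) did not pass the exact test. In TTP, Fos went from 3 of 4369 cDNAs (0.0687%) to 24 (0.251%, odds ratio 3.66, interval 1.11 to 19.0, adjusted p = 0.0486, exact test) and Jund from 0 to 12 (adjusted p = 0.0496, exact test), while Junb (3 and 23, 0.0653) and Jun (3 and 9, 0.868) did not pass. These 2 of 4 stand beside 47.5% of the 276 genes tested, so the count is not a result about the members, and both calls were lost when genes with at least 5 cDNAs were tested.

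At 4 h Jun kept 5 cDNAs with TTP, 0.552% of a list of 906 against 0.0942% at 1 h (odds ratio 5.89, interval 1.55 to 19.6, adjusted p = 0.0281, exact test), the single call of 4 members (20% of 170 genes), also lost with a minimum of 5 cDNAs. Jund had 3 cDNAs (adjusted p = 0.376, exact test), and Fos and Junb, with 24 and 23 cDNAs at 1 h, were listed at 0 (0.551 and 0.546). In TTP-AA all 6 members tested were listed at 0 at 4 h and 0 of 6 were called by Fisher's exact test, with 0 also at an unadjusted p under 0.05 (3.13% of 1980 genes called, 122 genes at an unadjusted p under 0.05). In a list of 1000 3′UTR cDNAs a fall of these genes was not detectable. Between the proteins at 0 h and at 4 h no member reached the 10 cDNAs needed for a test. The 1 h lists enter several of these comparisons, which are therefore not independent. The 1 h lists also carry a peak-calling mark in their headers that the 0 h and 4 h lists lack, so time and peak calling cannot be told apart.

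Of 43 related factors (other AP-1 and ATF family members, ternary complex factors and the Myc network), 12 had a 3′UTR site in TTP 1 h and 25 in TTP-AA 1 h. At 1 h 16 could be tested, and 2 passed, both with the higher share in TTP, where 6.39% of all genes tested were called and 4.41% in that direction. These were Atf1, a CREB-family leucine zipper protein (12 TTP and 4 TTP-AA cDNAs, adjusted p = 6.61e-08, Fisher's exact test), and Elk1, a ternary complex factor that drives Fos and Egr1 transcription (16 and 40 cDNAs, adjusted p = 0.00148, exact test). Most cDNAs were found in Cebpb, a leucine zipper factor of macrophage gene induction (10 and 226), Maff (8 and 153), Elk1, Mafk (3 and 42) and Max, the partner of Myc (8 and 33). The Cebpb 3′UTR was crosslinked although it has 0 copies of AUUUA, whereas Jun has 4 copies and its sites lay upstream of the first. Other comparisons had calls too. At 0 h Cebpb and Elk1 had the higher share in TTP (2 of 2 tested, 74 of 241 genes called). From 0 h to 1 h in TTP, Cebpb fell in share and Atf1, listed at 0 at 0 h, had the higher share at 1 h (4 tested, 47.5% of genes called). In TTP-AA, Maff, listed at 0 at 0 h, had the higher share at 1 h and Atf6 fell (15 tested, 12.4% of genes). From 1 h to 4 h in TTP-AA, Cebpb and Mafg rose (2 of 15 tested, 3.13% of genes). The remaining comparisons had no call.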

How the data were processed

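The data were 6 lists of TTP crosslink sites (iCLIP, mm10), 1 per protein and time. The authors mapped reads with Bowtie, collapsed them to unique cDNAs by random barcodes, took the base before each read as the crosslink site, added up the libraries within each group and retained sites at a false-discovery rate under 0.05 in iCount (100 permutations, 15-nt flanks). The deposited score of a site is its cDNA count, with the sign giving the strand.

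Sites were assigned on the sense strand to GENCODE M21 genes, 3′UTR before coding sequence, with numpy 2.4.6, pandas 2.3.3 and scipy 1.17.1 in Python 3.11.15. The authors annotated with another release. Each gene's 3′UTR cDNAs were set against all other 3′UTR cDNAs of a list by a two-sided Fisher's exact test, for genes with at least 10 cDNAs over both lists, and p-values were Benjamini-Hochberg adjusted over all genes tested (threshold 0.05). Within genes, 3′UTR against coding and AUUUA-near against other cDNAs were tested likewise. Positions run from 1 after the stop codon of 1 reference transcript per gene. Since a list pools libraries and cDNAs of one library are not independent replicates, p-values and intervals cover counting error only. Total cDNAs per list ranged from 19167 to 174397. On simulated data of the depth of the 1 h lists the test gave no wrong direction among the few changes it called. It missed most of the changes put in, so a gene that did not pass may still differ. The simulated lists had no spread between libraries and no filter of sites, so they cannot show how often the test errs on the real lists.

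All 10 members are described, with the leading site of each in the 1 h lists. Of the related factors, the 5 with most cDNAs over both 1 h lists and those past the threshold of a comparison are named. Members, lists and tests were chosen with earlier results of these data known. Alternatives changed the unit counted, the denominator, site depth, cDNA minimum, region rules and motif distance.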

Additional observations from a re-analysis of the deposited data

How the results depend on the processing

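No paired analysis was possible because each deposited list sums the libraries of its group, and for the same reason no library could be left out. The number of members called between TTP-AA and TTP at 1 h was 1 (132 of 2065). Brackets here and below give the genes called of all genes tested under the same setting. A member count near that share is not a result about the members. The number became 5 with all cDNAs of the list as denominator (1763 of 2065) and 4 with cDNAs in any sense region of the gene (1739 of 2779). It was 2 without the 6 genes with most cDNAs (127 of 2059) and 2 with sites of at least 2 cDNAs (64 of 794). At 4 h, where no member could be tested in the main setting, it was 1 of 1 tested with a minimum of 5 cDNAs (51 of 78). For 1 h against 0 h in TTP it fell from 2 (131 of 276) to 0 with each site counted once (67 of 223). It also fell to 0 with all cDNAs (125 of 276) or any sense region (375 of 791) as the base. The same held with a minimum of 5 cDNAs (173 of 658) and with no minimum (145 of 1667). With sites of at least 2 cDNAs no member could be tested, so no call could be made. The number rose to 3 without the 6 genes with most cDNAs (122 of 270). In TTP-AA it went from 2 (255 of 2052) to 1 with each site counted once (174 of 1867). With all cDNAs it was 5 (503 of 2052) and with any sense region 4 (542 of 2664). For 4 h against 1 h in TTP it went from 1 (34 of 170) to 0 with each site counted once (26 of 143). It was also 0 with a minimum of 5 cDNAs (30 of 448) and with no minimum (54 of 1341). Sites of at least 2 cDNAs left no member to test. All cDNAs and any sense region gave 2 each (51 of 170 and 188 of 613). In TTP-AA it went from 0 (62 of 1980) to 3 (276 of 1980) and 2 (290 of 2562) with those bases. Directions turned between TTP-AA and TTP at 1 h for Jun (-0.0119 percentage points) and Junb (-0.0466) with each site counted once, and for Fos (0.0119 and 0.00623) and Jund (0.0120 and 0.0108) with all cDNAs and with any sense region. Jund turned for 1 h against 0 h in TTP-AA (0.00875 and 0.00469) and for 4 h against 1 h in TTP (-0.00177 and -0.00208) with the same bases, and Jun for 1 h against 0 h in TTP (-0.000555) with any sense region. The cause of these shifts was not tested. The difference in the share of Fos cDNAs near AUUUA turned to -1.59 points at 50 nt. The members' share of sites near AUUUA in TTP 1 h was 29.1% at 10 nt, 74.5% at 50 nt and 23.6% for UAUUUAU, and in TTP-AA 1 h 17.5%, 51.7% and 14.3%, 36.4% weighted by cDNAs and 41.3% for UUUUU, an alternative chosen after seeing the data. The share of TTP sites with a TTP-AA site close by was 65.5% at the same nucleotide. Among the other 53 values that answer a comparison, counts stayed within 1.5 times and shares within their error, and 187 single-gene values kept their direction and their side of the threshold. Some of these values could not move, so their number is no measure of stability. Between the proteins at 0 h and at 4 h no member could be tested under most settings. The 3′UTR against coding test could give no difference for the members under any setting. Between the proteins at 0 h and at 4 h no member reached the 10 cDNAs needed for a test.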

Other observations

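On the opposite strand of the 10 genes, and in the 500 nt after the annotated end of each gene, no site was listed in any of the 6 lists. Among members, 86.3% of the Atf3 cDNAs and 42.1% of the Junb cDNAs of TTP-AA 1 h lay at most 100 nt from the 3′UTR end, whereas Jun had 0% there and Fos 6.35%.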
